A study of Oryza sativa with 8 samples.

Results

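The baseline transcriptome of rice roots was examined in 4 RNA-seq libraries of nontransgenic (NT) plants of the cultivar Ilmi, as the comparison of 2 libraries whose table columns carry the word Set with 2 whose columns carry the word Root. These are 4 of the 8 samples of a study of OsERF48, an AP2/ERF transcription factor, whose other 4 samples are transgenic plants and were not used. All 4 NT samples are roots of plants aged 2 weeks that carry no transgene, were germinated on Murashige and Skoog medium, were then kept in soil pots in a greenhouse and received no stress treatment. The 2 pairs are called Root NT and Set NT here, after the column names, which are the only source of the division. They name neither the plants, the harvest nor the sequencing run behind each pair, so any of these cannot be told apart from the set. Members are the genes with a mean of at least 0.5 FPKM (fragments normalized for transcript length in kilobases and for the number of mapped fragments) over the 4 libraries, and 26052 of the 37869 genes in the table met that limit. Just outside it, Os05g0119400 had 0.0573 and 0.0613 FPKM in the Root NT and 0.877 and 1.004 FPKM in the Set NT libraries. Just inside it, Os04g0317300 had 0.511 and 0.527 FPKM in the Root NT and 0.467 and 0.496 FPKM in the Set NT libraries.

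A rice root is built outward from a tip in which cells divide, through a zone in which they elongate, to mature tissue in which walls are lignified and ions and water are loaded into the vascular core. Rice roots live in soil that is often short of oxygen, take up iron both as the free ion and bound to mugineic acid family chelators, and pass water through aquaporins of the plasma membrane and the vacuole. Metallothioneins, small cysteine-rich proteins that bind metals, are among the most abundant transcripts of cereal roots. In whole roots, fewer cells of a type and less RNA per cell cannot be told apart.

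The Root NT pair was closer than the Set NT pair, and both were far closer than any Root library was to any Set library. The median absolute difference between libraries on the log2(FPKM + 1) scale was 0.0606 in the Root NT pair, 0.115 in the Set NT pair and 0.442 to 0.492 across the sets. Between the Root NT libraries 29 genes differed by at least 2-fold, against 219 between the Set NT libraries and 4949 to 5999 across the sets. In genes with 1 transcript, the median squared difference was 1.16 times the sampling variance for the Root NT pair, 3.91 times for the Set NT pair and 50.9 to 64.5 times across the sets. The Root NT libraries thus differed by little more than sampling noise. The methods name both biological and technical replicates without saying which libraries are which, so a pair may be 1 sample prepared repeatedly, and the comparison may then be of 1 sample with 1. The p-values here measure the spread between libraries, which may be technical. Depth, read from the steps of low FPKM values, was about 37600000 and 42000000 fragments in the Root NT and 49500000 and 46600000 in the Set NT libraries. The same steps gave a length correction of 175 and 165 bases for Root NT and 190 and 185 bases for Set NT. Genes above 0 numbered 31568 and 31712 in Root NT and 32555 and 32240 in Set NT. Depth and length correction therefore moved with the set, and their part in the differences below was not tested.

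**Figure D1:**
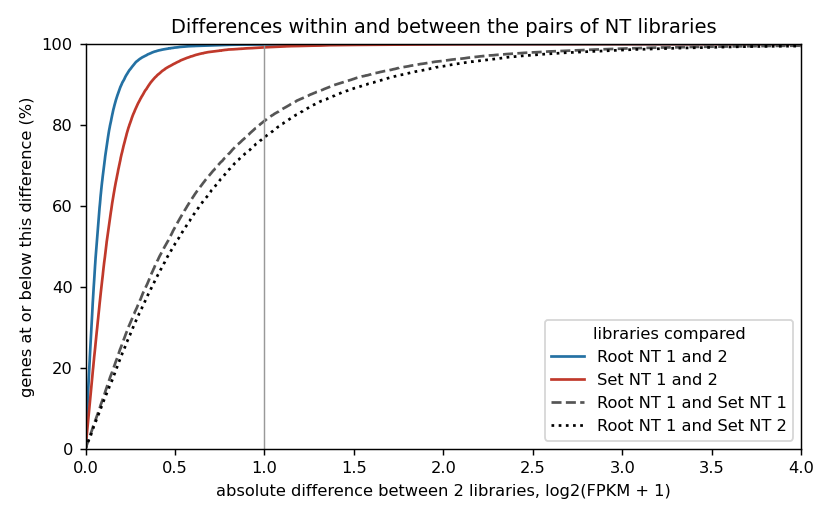
Cumulative share of the 26052 tested genes (%) at or below a given absolute difference between 2 libraries on the log2(FPKM + 1) scale, for the Root NT pair, the Set NT pair and Root NT 1 against each Set NT library, with a vertical line at 2-fold. The curves of the pairs rise steeply to medians of 0.0606 and 0.115, and those across the sets rise slowly to medians of 0.443 and 0.492.

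The 2 sets shared most of their expressed genes. At a mean of at least 0.5 FPKM within a set, 25017 genes were expressed in Root NT and 26140 in Set NT, and 24320 were expressed in both, which is 97.2% of the Root NT and 93.0% of the Set NT genes. In all 4 libraries 21380 genes had at least 1 FPKM, 9549 at least 10, 787 at least 100 and 26 at least 1000. The order at the top was less alike, since of the 100 most abundant genes of each set 42 were the same. The most abundant gene took 5.6% of the summed FPKM of each Root NT library and 2.6% and 2.9% of the Set NT libraries, and the 100 most abundant genes of a library took 28.8% and 28.7% against 21.0% and 21.5%. Of the tested genes, 10415 (40%) stayed within a 1.5-fold range over the 4 libraries. These steady genes are described further below.

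Metallothioneins headed the common transcriptome. Values are given here and below in the order Root NT 1, Root NT 2, Set NT 1 and Set NT 2. Differences are Set NT minus Root NT on the log2(FPKM + 1) scale, with the moderated standard error (SE) of the limma fit. That SE draws on the spread of all tested genes, so it is not the spread of the gene's own libraries alone. Os12g0571100, a metallothionein-like gene on chromosome 12 (23515075 to 23516013), was the most abundant gene of every library with 45168, 45628, 20028 and 22322 FPKM. Both Set values lay below both Root values, and the difference was −1.10 ± 0.33 (adjusted p = 0.033, limma). It is 1 of 6 metallothionein genes within 163.8 kb, from 23352196 to 23516013, which together had 82777, 83198, 47356 and 50150 FPKM. The neighbours did not move alike. Os12g0568500 had 10461, 10393, 11633 and 14201 FPKM, a difference of 0.30 ± 0.23 that did not pass the test (adjusted p = 0.28). Os12g0570700 had 13216, 13198, 6885 and 5776 FPKM and was called lower in Set NT (−1.07 ± 0.20), as was Os12g0568200 with 4900, 4948, 2541 and 2251 FPKM (−1.04 ± 0.14). RicMT (Os01g0974200), a metallothionein gene on chromosome 1, was the only one called higher in Set NT, with 237, 246, 507 and 899 FPKM. How alike these genes are in sequence was not measured, and some overlap other annotated genes, so how fragments were divided among them is uncertain. The 3 calls for lower metallothionein genes were also fragile, since 0 of them passed when either Root NT library was left out, with the Root NT pair averaged or under quantile normalization, and 1 passed without Set NT 2 or with no filter on low values. Quantile normalization gave 2 higher genes in this list. Over all metallothioneins the share of the summed FPKM was 10.5% and 10.6% in Root NT and 6.68% and 7.06% in Set NT.

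Other abundant transcripts included those of defence-related and salt-induced proteins, but lower levels in Set NT were not particular to them. A Myb factor gene (Os01g0975300, −1.16 ± 0.19) and a glycine-rich RNA-binding protein gene (Os03g0670700, −1.16 ± 0.12) were also called lower. Of the 20 most abundant genes by the mean over the 4 libraries, 0 were called higher in Set NT and 12 lower. Of these 12 calls, 6 passed when either Root NT library was left out or the pair averaged, 7 without Set NT 2, 9 with no filter and 5 under quantile normalization. The PR-1a-like gene Os10g0191300, which encodes a secreted pathogenesis-related protein, had 7596, 7504, 2308 and 1764 FPKM. SalT (Os01g0348900), a mannose-binding lectin first known as salt-induced, had 5361, 5435, 2152 and 1384 FPKM. HMGB1 (Os06g0728000), a chromatin protein of the high mobility group, had 2884, 2823, 932 and 861 FPKM. In each of these genes both Set NT libraries were below both Root NT libraries, and the differences were −1.90 ± 0.18, −1.65 ± 0.23 and −1.67 ± 0.10. These 3 calls passed in every one of those fits. An uncharacterized gene, Os02g0583700, ranked near the top with 15839, 16237, 8295 and 6165 FPKM, and its call was among those lost (adjusted p = 0.19 without either Root NT library, in limma).

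Across all 26052 genes, 5374 (20.6%) were called, meaning at least 2-fold and an adjusted p under 0.05 in limma. Of these, 3584 (13.8% of the tested genes) were higher and 1790 (6.87%) lower in Set NT, and 20678 were not called. These shares are the background for every count of list members below. Counts of 3 or fewer within a list moved by at most 2 when 1 library was left out, other than among the metallothioneins. Without the fold limit 17981 genes had an adjusted p under 0.05, so small differences between the sets were widespread. The median difference of all genes was 0.06. Calls were more often upward in Set NT (66.7% of calls), and under quantile normalization, which gives every library the same distribution of values, 54.4% of calls were upward and the median of all genes moved to −0.10. Among the 2985 genes with a mean of at least 50 FPKM, 457 were higher and 434 lower. Of the tested genes, 1732 were below 0.5 FPKM in one of the sets, and such a gene entered the test through the set in which it was high. Listed at 0 in both Root NT libraries were 53 tested genes, and listed at 0 in both Set NT libraries were 8.

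**Figure D2:**
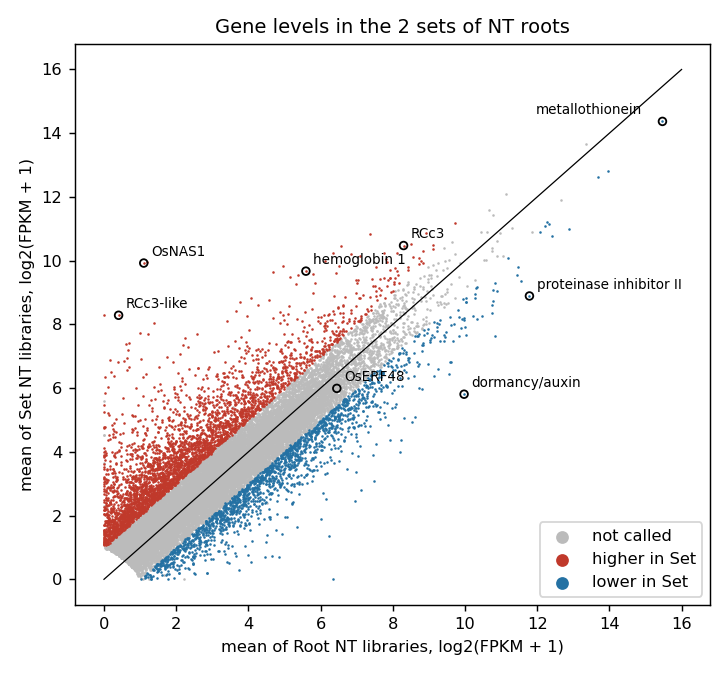
Mean of the Set NT libraries against the mean of the Root NT libraries for the 26052 tested genes, both axes as log2(FPKM + 1), with called genes coloured by direction and the diagonal drawn. Of the 3584 genes higher in Set NT many have Root values near 0 (OsNAS1 and an RCc3-like gene are ringed), while the gene with the highest level, a metallothionein, lies below the diagonal.

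The share of called genes varied with level and length. Among the 6513 tested genes of the lowest mean FPKM 10.9% of genes were higher and 3.06% lower in Set NT, and among the 6513 of the highest 13.4% were higher and 11.7% lower. By length of the longest transcript, 16.7% of the 6516 shortest were higher and 10.1% lower, against 10.4% and 3.8% of the 6506 longest.

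On the log2(FPKM + 1) scale, the largest differences were those of a pair of genes for iron uptake. Nicotianamine synthase makes nicotianamine, a metal chelator that in grasses is also the precursor of the mugineic acid phytosiderophores secreted to bind iron in soil. OsNAS1 (Os03g0307300, chromosome 3, 10929507 to 10930895) had 1.20, 1.09, 775 and 1167 FPKM. Its neighbour Os03g0307200, also described as a nicotianamine synthase (10926469 to 10927729), had 1.42, 1.17, 826 and 1178 FPKM. Both genes were near 1 FPKM in the Root NT libraries and between 775 and 1178 FPKM in the Set NT libraries, with differences of 8.79 ± 0.20 (adjusted p = 4.7e-05) and 8.75 ± 0.18 (adjusted p = 4.4e-05). The iron-phytosiderophore transporter gene Os02g0650300, which encodes an importer of the iron chelate, had 5.08, 4.88, 155 and 259 FPKM (5.07 ± 0.24). OsNramp1 (Os07g0258400), a membrane transporter of divalent metals, had 1.28, 1.18, 73.0 and 99.8 FPKM (5.28 ± 0.15). The ferritin genes, whose products store iron, stood the other way. Os11g0106700 had 29.0, 28.2, 7.86 and 5.21 FPKM (−1.998 ± 0.17) and Os12g0106000 had 22.2, 23.6, 5.49 and 5.31 FPKM (−1.90 ± 0.07). Over the list of iron and zinc uptake and chelation genes, 9 of 26 were higher, 2 lower and 15 not called, with a median of 0.48 beside 0.06 over all genes. The list as a whole took 0.0438% and 0.0432% of the summed FPKM in Root NT and 0.323% and 0.453% in Set NT.

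Genes of the RCc3 type, which encode small root-specific proline-rich proteins related to lipid transfer proteins, were higher in Set NT. RCc3 itself (Os02g0662000, chromosome 2, 26804988 to 26805820), whose promoter is a standard driver of root expression in rice, had 321.0, 307, 1236 and 1608 FPKM, a difference of 2.16 ± 0.14. Its relatives on chromosome 4 were nearly silent in the Root NT libraries. Os04g0554500 had 0.279, 0.368, 278 and 344 FPKM (7.87 ± 0.11), and Os04g0554600 had 0.0295, 0, 76.4 and 86.2 FPKM (6.34 ± 0.09). Of the 4 genes described as RCc3, 3 were tested and Os04g0554800 was below the limit with 0, 0, 0.0208 and 0 FPKM. RCc3 itself was thus abundant in all 4 libraries, while the 2 tested relatives on chromosome 4 exceeded 1 FPKM in the Set NT libraries alone. Among the 34 tested lipid transfer protein genes, 14 were higher, 5 lower and 15 not called (median 0.44). Os10g0552200 was listed at 0 in both Root NT libraries and had 33.7 and 39.7 FPKM in Set NT.

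Aquaporin genes were mostly higher in Set NT, 12 of 18 tested, with 3 lower, 3 not called and a median of 1.65. The most abundant, Os02g0666200, had 492, 473, 1569 and 2164 FPKM (1.93 ± 0.17). A tonoplast intrinsic protein gene, Os02g0658100, whose class of channel carries water across the vacuole membrane, had 24.7, 24.1, 588 and 1018 FPKM (4.93 ± 0.26). The PIP2-5-like gene Os07g0448400, of the plasma membrane class, had 12.9, 10.5, 277 and 407 FPKM (4.74 ± 0.20). In all these genes the sets were apart, and Set NT 2 was above Set NT 1. The exceptions included the NIP III gene Os02g0745100, the silicon influx channel of rice roots, which had 1304, 1289, 598 and 546 FPKM (−1.18 ± 0.09). Summed over the list, aquaporins took 0.435% and 0.428% of the FPKM in Root NT and 1.11% and 1.48% in Set NT.

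Nitrogen assimilation genes lay to the Set NT side as well, 15 of 34 higher and 0 lower (median 0.77). Nitrate reductase, the first enzyme of nitrate assimilation, was represented by Os02g0770800 with 0.454, 0.429, 18.8 and 27.5 FPKM (4.04 ± 0.18). The chloroplast-type glutamine synthetase gene Os04g0659100, described in the table as the shoot isozyme, had 8.64, 9.36, 79.9 and 96.1 FPKM (3.15 ± 0.10). The root isozyme Os03g0223400 was the most abundant member with 347, 335, 653 and 590 FPKM and did not reach 2-fold (0.86 ± 0.08). Os10g0554200, for which one transcript is annotated as a nitrate transporter, had 5.19, 4.95, 84.0 and 113 FPKM (4.02 ± 0.15).

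Transport genes of other ions were called in both directions, beside 13.8% higher and 6.87% lower over all genes. Among 35 sodium and potassium transport genes 7 were higher (20%) and 2 lower (5.71%), with a median of 0.24. The Na+/K+ symporter gene Os06g0701700 had 1.499, 1.40, 37.4 and 59.6 FPKM (4.30 ± 0.22). Of 36 phosphate genes 7 were higher (19.4%) and 5 lower (13.9%), with a median of −0.01. In that list the most abundant gene, Os03g0150600, a phosphate transporter, was lower in Set NT with 294, 280, 101 and 82.7 FPKM (−1.64 ± 0.11).

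Genes of cell wall growth were widely higher in Set NT. Expansins loosen walls, and xyloglucan endotransglucosylases cut and rejoin the hemicellulose that ties cellulose fibrils together. Of 73 such genes 48 were higher, 2 lower and 23 not called, with a median of 1.27. The xyloglucan enzyme gene Os11g0539200 had 0.332, 0.264, 108 and 116 FPKM (6.44 ± 0.07), and the alpha-expansin gene Os04g0228400 had 0.249, 0.172, 27.6 and 29.997 FPKM (4.62 ± 0.09). Both were under 1 FPKM in Root NT and well expressed in Set NT. Cellulose synthase and COBRA-like genes, which make and orient cellulose, included 17 higher and 0 lower of 30 (median 1.49). The cellulose synthase gene Os07g0252400 had 17.9, 17.2, 140 and 154 FPKM (2.99 ± 0.07). Arabinogalactan, fasciclin and plastocyanin-like proteins, glycoproteins of the cell surface, included 20 higher and 0 lower of 32, and their median of 2.11 was the highest of the 56 lists. The small arabinogalactan peptide gene Os05g0217000 had 3.73, 3.47, 144 and 177 FPKM (5.13 ± 0.11). Among 57 genes of the pectin list 20 were higher and 7 lower (median 0.62). That list holds inhibitors of pectin enzymes as well as the enzymes, and such inhibitors were called in both directions.

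The lists of lignin-related enzymes did not move alike. Laccases and dirigent proteins, which couple lignin and lignan monomers, included 21 higher and 2 lower of 41 (median 1.02). A dirigent-like gene, Os10g0334500, was listed at 0 in both Root NT libraries and had 31.6 and 21.0 FPKM in Set NT. Class III peroxidases, secreted enzymes that act on wall phenolics and reactive oxygen, were divided, with 41 higher, 18 lower and 44 not called of 103. At one end Os05g0499300 had 1.88, 1.39, 242 and 289 FPKM (6.66 ± 0.13). At the other end Os04g0688300 had 182, 174, 9.76 and 5.32 FPKM (−4.44 ± 0.25), and the most abundant peroxidase gene, Os10g0109600, had 1243, 1246, 508 and 400 FPKM (−1.46 ± 0.13). Upstream, phenylpropanoid enzymes had 9 higher (17.6%) and 3 lower (5.88%) of 51, near the shares over all genes. The most abundant of them, the phenylalanine ammonia-lyase gene Os02g0626100, did not pass the test with 1568, 1537, 2041 and 1772 FPKM (0.29 ± 0.12, adjusted p = 0.067).

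**Figure D3:**
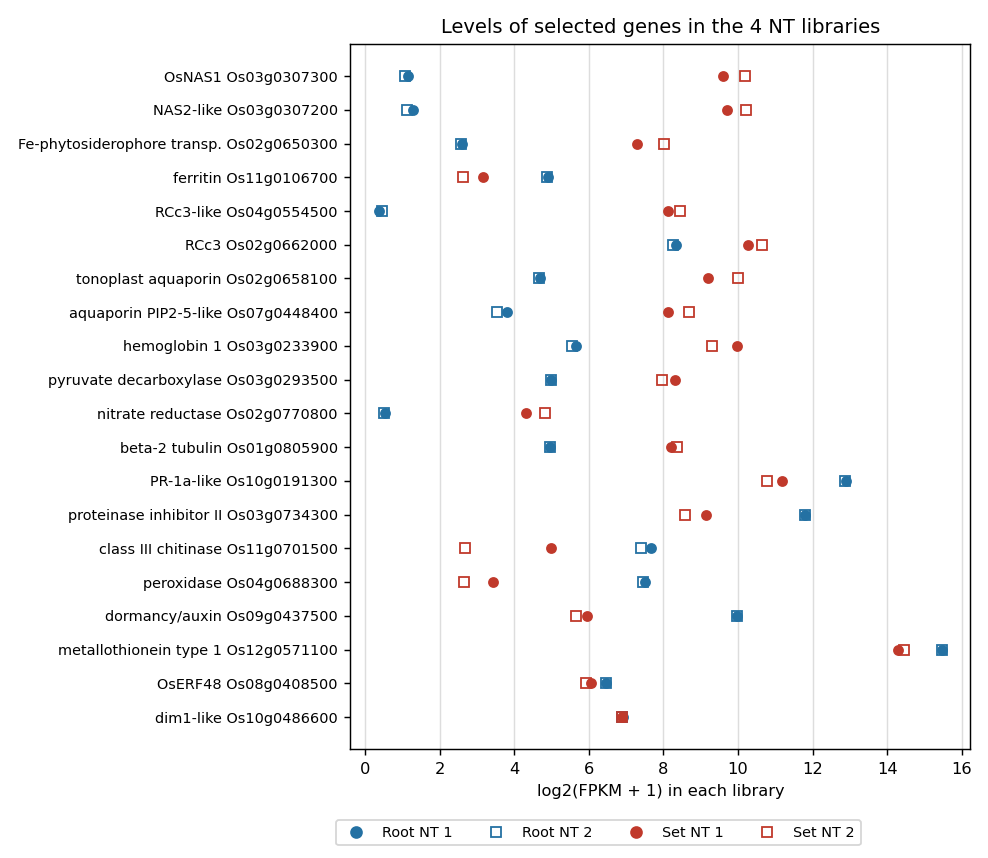
Level of 20 genes in each of the 4 NT libraries as log2(FPKM + 1), with Root NT in blue, Set NT in red, the first library of a set as a circle and the second as a square. The sets lie apart in each gene shown except the dim1-like gene at the bottom, whose 4 values run from 117 to 120 FPKM.

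Genes of dividing and growing cells were higher in Set NT or not called, with few exceptions. Of 98 cell cycle and DNA replication genes 42 were higher and 1 lower (median 0.81), and the cyclin-B1-1-like gene Os01g0805600, a mitotic cyclin, had 6.18, 6.44, 29.6 and 32.0 FPKM (2.12 ± 0.07). Tubulins and actins included 13 higher and 0 lower of 24 (median 1.18). The beta-2 tubulin gene Os01g0805900 had 29.98, 29.9, 294 and 326 FPKM (3.33 ± 0.07), so the sets did not overlap. Histones included 18 higher and 0 lower of 47 (median 0.63). Among cytosolic ribosomal protein genes 37 of 245 were higher (15.1%, near the share over all genes), 2 lower and 206 not called, with a median of 0.64. The count of 37 fell to 19 without Set NT 2, to 18 under scaling by median ratios and to 16 under quantile normalization. Their share of the summed FPKM was 2.92% and 2.90% in Root NT and 4.69% and 5.06% in Set NT. Mitochondrial ATP synthase and respiratory chain genes had 9 higher (17.3%) and 3 lower (5.77%) of 52, near the shares over all genes (median 0.59).

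Genes described as alcohol or lactate dehydrogenases, pyruvate decarboxylases or hemoglobins, grouped here as low-oxygen genes, were mostly higher in Set NT. Of 15 tested, 9 were higher and 0 lower (median 1.83). They were grouped by description alone, and a response to oxygen was not tested. Non-symbiotic hemoglobins bind oxygen and nitric oxide and are induced when rice roots are flooded. Hemoglobin 1 (Os03g0233900, chromosome 3, 7092864 to 7093988) had 49.2, 45.4, 1003 and 625 FPKM, a difference of 4.04 ± 0.23. Hemoglobins 3 and 4 (Os03g0234000 and Os03g0234100), its neighbours, were listed at 0 in both Root NT libraries and had 15.8 and 13.8 FPKM and 27.4 and 24.6 FPKM in Set NT. The alcohol dehydrogenase gene Os11g0210500, of the fermentation step that regenerates NAD+, had 427, 414, 1296 and 875 FPKM (1.34 ± 0.19). Set NT 1 was above Set NT 2 in these genes, unlike in the aquaporins. Glycolysis, which feeds fermentation as well as respiration, had 28 of 52 genes higher and 1 lower (median 1.03). The glyceraldehyde-3-phosphate dehydrogenase gene Os04g0486600 had 214, 219, 1133 and 1272 FPKM (2.47 ± 0.09). As a share of the summed FPKM, glycolysis enzymes made up 0.276% and 0.279% in Root NT and 0.917% and 0.899% in Set NT.

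Heat shock proteins and chaperonins, which fold and protect other proteins, included 42 higher and 4 lower of 107 (median 0.65). A small heat shock protein gene, Os02g0758000, had 12.8, 12.5, 450 and 387 FPKM (4.94 ± 0.09), and the Hsp70 gene Os05g0460000 had 2.27, 2.43, 121 and 128 FPKM (5.23 ± 0.06). The most abundant member, the Hsp70 gene Os11g0703900, was expressed at 859, 823, 1171 and 1192 FPKM and did not reach 2-fold (0.49 ± 0.08).

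Defence genes were often lower in Set NT. Of 111 tested chitinase, glucanase, protease inhibitor and pathogenesis-related genes, 37 were lower, 12 higher and 62 not called, with a median of −0.56. The proteinase inhibitor II-like gene Os03g0734300 had 3530, 3529, 565 and 382 FPKM (−2.92 ± 0.20), and the Barwin-like gene Os11g0592100, of the PR-4 family, had 3015, 3019, 703 and 605 FPKM (−2.21 ± 0.11). The class III chitinase gene Os11g0701500 had 200, 168, 30.7 and 5.36 FPKM (−3.70 ± 0.74). Its Set NT values lay far apart but below both Root NT values. Not every member was lower, since the Bowman-Birk trypsin inhibitor gene Os01g0127600 had 18.3, 18.3, 429 and 357 FPKM (4.34 ± 0.10). Together the list took 3.53% and 3.51% of the summed FPKM in Root NT and 1.52% and 1.16% in Set NT. Germin-like proteins, apoplastic glycoproteins of which some have oxalate oxidase or superoxide dismutase activity, had 8 lower and 1 higher of 18 (median −0.97). Germin-like protein 8-12 (Os08g0231400), the most abundant, had 1002, 1007, 319 and 274 FPKM (−1.76 ± 0.10).

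The signalling families around defence were shifted less. WRKY transcription factors, many of which act in defence, had 14 of 72 lower and 1 higher (median −0.35), with WRKY62 (Os09g0417800) at 85.7, 82.3, 22.98 and 9.47 FPKM (−2.42 ± 0.38). NAC factors had 8 lower (14%) and 4 higher (7.02%) of 57 (median −0.17), and 50.9% of them stayed within a 1.5-fold range. Receptor-like kinases and DUF26 proteins had 16 lower (14.4%) and 11 higher (9.91%) of 111, beside 6.87% lower and 13.8% higher over all genes. Within them, the abundant DUF26 gene Os04g0659300 had 2858, 2719, 1028 and 473 FPKM (−1.998 ± 0.37). The NB-ARC resistance genes, intracellular immune receptors, had 12 lower (5.26%) and 10 higher (4.39%) of 228 (median −0.07), and 206 were not called. With a pseudocount of 0.1 these counts became 19 lower and 25 higher, and under quantile normalization 21 lower and 7 higher, so neither direction led in every fit.

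Photosynthesis genes, which a root in soil expresses at a low level, were lower still in Set NT. Of 75 such genes 40 were tested, and 22 were lower, 1 higher and 17 not called (median −1.14). Their summed FPKM was 207.4, 207.9, 84.5 and 74.6, or 0.0255%, 0.0256%, 0.0109% and 0.00955% of each library, and between 12 and 18 of the 75 were at 0 in each library. The highest, the oxygen-evolving enhancer gene Os07g0544800, had 37.8, 37.0, 7.92 and 5.18 FPKM (−2.37 ± 0.18). The 1 gene called higher, the chlorophyll a/b-binding gene Os01g0720500, had 0.331, 0.293, 1.70 and 2.44 FPKM (1.22 ± 0.14). Outside the list, further genes were named because they were among those most lowered in Set NT. The light-regulated Lir1 gene Os01g0102900 had 300, 298, 25.3 and 13.7 FPKM (−3.93 ± 0.27), and a plastid sigma factor gene, Os05g0589200, had 21.1, 21.4, 1.44 and 1.09 FPKM (−3.30 ± 0.10). By summed FPKM, the transcripts of the photosynthesis list were thus a small share of every library, with the higher share in Root NT. Their part in the other differences was not tested. Of 10 tested genes described as seed storage proteins 2 were higher and 0 lower, and the one with the larger difference, Os03g0188500, is called an arabinogalactan protein in the study.

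Hormone genes differed gene by gene. Shares over all genes were 13.8% higher and 6.87% lower. Auxin response and transport genes had 23 higher (19.7%) and 12 lower (10.3%) of 117 (median 0.14). The auxin efflux carrier gene Os01g0802700, of the class that moves auxin between cells, had 3.48, 3.05, 43.4 and 49.8 FPKM (3.48 ± 0.10). In contrast the dormancy/auxin-associated gene Os09g0437500 (chromosome 9, 16153181 to 16155032) had 1010, 1001, 60.5 and 49.6 FPKM, a difference of −4.17 ± 0.10. Ethylene genes had 6 higher (27.3%) and 2 lower (9.09%) of 22 although their median was −0.26. Among them Os09g0453800, of the family of synthases that make the ethylene precursor, had 22.9, 22.1, 124 and 169 FPKM (2.63 ± 0.15). Jasmonate synthesis genes had 6 lower (26.1%) and 2 higher (8.7%) of 23 (median −0.09). An allene oxide synthase gene, Os03g0225900, was lower with 20.9, 20.6, 3.77 and 1.67 FPKM (−2.61 ± 0.27). Another, Os03g0767000, was higher with 3.62, 3.59, 8.09 and 9.74 FPKM (1.10 ± 0.10). The gibberellin and GRAS list had 10 higher (20%) and 1 lower (2%) of 50 (median 0.25). Of 9 clock genes, 1 was higher (11.1%, near the share over all genes) and 0 lower. The higher gene was the MYB-type clock factor Os08g0157600 with 67.5, 63.3, 184 and 174 FPKM (1.44 ± 0.06).

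**Figure D4:**
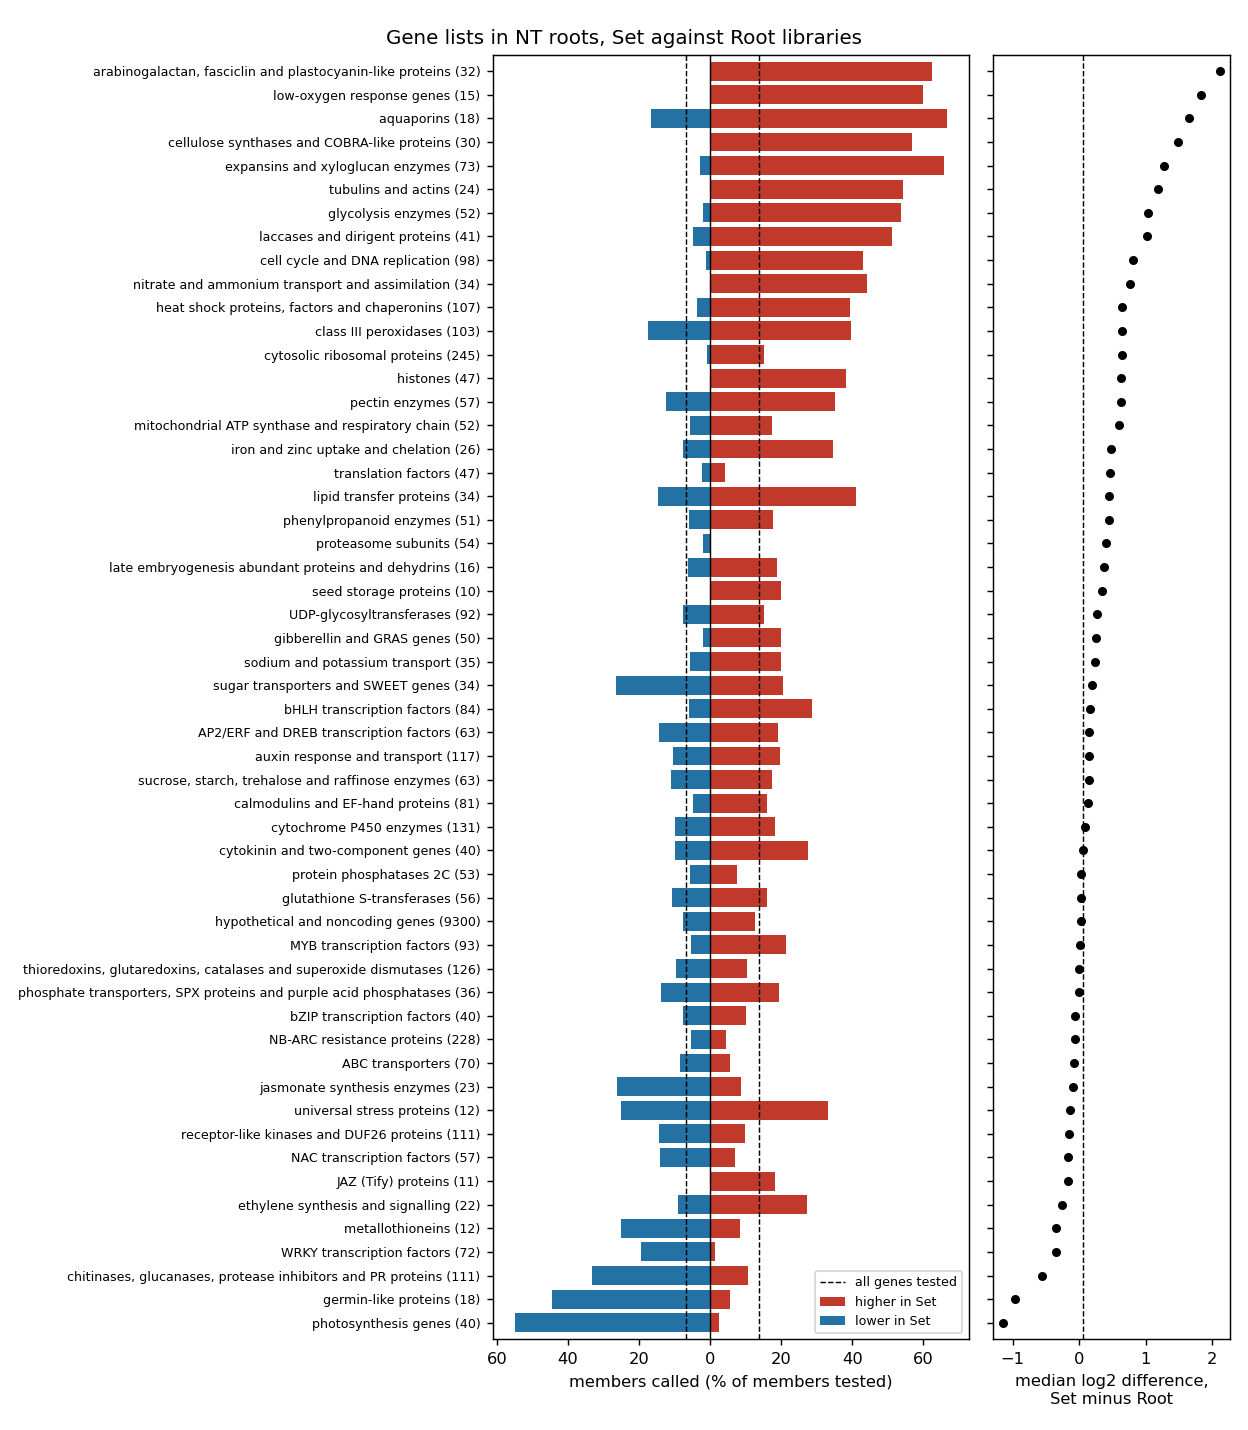
Share of the tested members of each gene list shown (number in brackets) called higher (red) or lower (blue) in Set NT, in percent. Beside it is the median difference of the list, Set NT minus Root NT on the log2(FPKM + 1) scale. The lists of clock genes (9 tested) and of retrotransposon and transposon genes are not shown. Dashed lines give all tested genes (13.8% higher, 6.87% lower, median 0.06), and list medians reach from −1.14 for photosynthesis genes to 2.11 for arabinogalactan, fasciclin and plastocyanin-like proteins.

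Few calls were made in lists of general cell maintenance. Proteasome subunits, which form the particle that degrades ubiquitin-tagged proteins, had 0 higher and 1 lower of 54, and 37 of them (68.5%) stayed within a 1.5-fold range. Their median was nevertheless 0.40, so they lay slightly to the Set NT side. Translation factors had 2 higher and 1 lower of 47 (median 0.46). Among single genes of at least 50 FPKM, the steadiest was Os10g0486600, a dim1-like gene of the spliceosome, with 120, 118, 117 and 117 FPKM (−0.02 ± 0.05). Others were the ubiquitin-conjugating enzyme gene Os03g0308000 with 63.9, 62.3, 63.0 and 63.8 FPKM, the alanyl-tRNA synthetase gene Os10g0182000 with 62.2, 60.9, 60.7 and 61.4 FPKM, and the gamma-SNAP gene Os04g0618500, of vesicle fusion, with 57.1, 56.6, 58.4 and 57.2 FPKM. In these genes the 2 sets overlapped or lay within a few percent of each other. Among genes of at least 50 FPKM, 1143 of 2985 (38.3%) were steady in this sense.

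OsERF48 (Os08g0408500, chromosome 8, 19547328 to 19548978) had 86.6, 86.2, 65.9 and 59.3 FPKM. Both Set NT values lay below both Root NT values, and the difference of −0.46 ± 0.07 had an adjusted p of 0.0028 and did not reach 2-fold. OsCML16 (Os01g0135700), which encodes a calmodulin-like protein, had 3.01, 3.25, 8.74 and 11.5 FPKM and was called higher in Set NT (1.41 ± 0.14). OsUbi1 (Os06g0681400), a ubiquitin gene used as a reference in qRT-PCR, had 617, 604, 1029 and 921 FPKM, a difference of 0.67 ± 0.09 that did not reach 2-fold. Of 20 genes that the study placed in a network around OsERF48, 14 were higher, 0 lower and 6 not called in Set NT against Root NT (median 1.36). The study chose them from samples of this series, so the count is not independent evidence of a direction.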

How the data were processed

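RNA of NT roots, harvested at 2 weeks, was made into strand-specific libraries and sequenced on an Illumina HiSeq by a service provider. FPKM values per gene and per transcript were computed before deposit for the authors, who deposited them with transcript lengths. The build in the submitters' processing notes is IRGSP 1.0, and the aligner and the quantification tool are not given in the sources used here. Columns were assigned to NT by their names. The 8 other columns of values in the gene table were not used, and no column of the authors' own comparisons entered any step. Coordinates are those of the table, counted from 1.

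Values were taken as log2(FPKM + 1) for the genes with a mean of at least 0.5 FPKM. limma 3.58.1 in R 4.3.3 (lmFit, eBayes with a trend) compared Set NT with Root NT, and p-values were adjusted over all tested genes by the Benjamini-Hochberg method. A gene was called at 2-fold or more and an adjusted p under 0.05. An exact permutation test of 2 against 2 libraries cannot go below p = 0.333 and was not used. The fit was also run on simulated fragments for 26052 genes. It recovered 99 of 100 genes changed by 1.5 on the log2 scale and 100 of 100 changed by 3, with 1 false call. In the data far more genes differed, since 17981 had an adjusted p under 0.05 in limma. The pairs also differed in spread, at 1.16 (Root NT) and 3.91 (Set NT) times the sampling variance. Whether the libraries of a pair are independent is unknown. The simulation therefore shows that planted changes were found, and its 1 false call is not the error rate of the calls above.

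Depth was estimated from the low FPKM values of genes with 1 transcript, which fall on steps worth 1 fragment once the length is reduced by a fitted number of bases. Between 93.2% and 93.9% of these values lay within 0.1 of a whole fragment. Intervals from counts were not made, since FPKM values hold no counts. Gene lists were made by keywords in the descriptions of the table, and patterns that caught other functions were narrowed after reading the descriptions. The members and lists were chosen with earlier results of these data known.

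Genes named are the 20 with the highest mean, the 15 called genes with a described function that differ most in each direction, the most abundant member of each list with up to 3 called members each way, the 10 steadiest described genes of at least 50 FPKM, and genes the study turns on. Os04g0554800, Os04g0653500 and Os11g0562432 fall outside that rule and were named after their values were seen. The results were recomputed with no filter, a minimum of 5 FPKM, a pseudocount of 0.1, quantile normalization, median ratios, no trend, sums over transcripts, unadjusted p-values, no fold limit, a narrower range for steady genes and leaving out each library. Averaging the Root NT pair and a block for the number in the column names were chosen after seeing the data. Python 3.11.15 with pandas 2.3.3, numpy 2.4.6 and matplotlib 3.10.9 was used.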

Additional observations from a re-analysis of the deposited data

Results flagged for a closer look

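In groups of 4 libraries, a value was singled out where the highest or lowest library lay unusually far from its nearest neighbour, as a share of the whole range, by Dixon's test. Of 424 values checked 2 met this (0.5%). Chance gives about 1 in 20 among values of one population, but many of these were chosen for a gap between the sets, which keeps the ratio low, so the rates cannot be compared. Os07g0673400, a gene in the list of universal stress proteins, had 1.02, 0.970, 12.3 and 2.69 FPKM, so that Set NT 1 stood apart from the other 3 libraries (ratio 0.848). The summed FPKM of the JAZ (Tify) genes, repressors of jasmonate signalling, was 557.2, 560.6, 554.8 and 481.0, so that Set NT 2 stood below the other 3 (ratio 0.927).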

How the results depend on the processing

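Both sets carry the numbers 1 and 2 in their column names, which no label ties to shared plants, and same-numbered libraries did not deviate together (r = 0.0101 across 26052 genes, which are not independent). A fit with the number as a block, chosen after seeing the data, gave 3596 higher and 1799 lower genes, and among the named genes it lost 1 call, Os12g0571100. Over leaving out each library in turn, genes higher in Set NT numbered 3391 to 3884 and genes lower 1520 to 2102. With a minimum of 5 FPKM 2248 genes were higher, out of fewer genes tested. Without the fold limit 9835 were higher and 8146 lower. Within a narrower range over the libraries 5003 genes were steady. A pseudocount of 0.1 gave 4874 higher and 2475 lower. Averaging the Root NT pair as 1 library, chosen after seeing the data, gave 3536 and 1770. Of the 5374 calls, the sign changed under quantile normalization for Os12g0571100 alone, whose difference became 0.0 because it ranks first in every library, and under no other alternative. Quantile normalization moved the median of all genes from 0.06 to −0.10, and it also turned the differences, none of them called, of Os02g0519700 (to 0.30), Os04g0653000 (to −0.066), Os12g0567800 (to 0.19) and Os12g0571000 (to 0.10). Os04g0653000, at 0.004 in the reported fit, was −0.063 with median ratios and lay between −0.057 and 0.066 when 1 library was left out. Quantile normalization also gave 11 lower genes of the pectin list (12 with a pseudocount of 0.1) and 7 higher receptor-like kinase and DUF26 genes. The cause of these turns was not tested. Medians of the AP2/ERF, MYB, PP2C, auxin, cytokinin, glutathione S-transferase, cytochrome P450, sugar transporter, sugar enzyme and hypothetical gene lists changed sign under quantile normalization. The 2 libraries a set, without known plants behind them, and the small spread of the Root NT pair limit every p-value here.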

Other observations

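Sugar transporter genes differed in both directions, with 7 higher (20.6%) and 9 lower (26.5%) of 34 in Set NT. The hexose transporter-like gene Os07g0106200, the most abundant, had 845, 822, 267 and 242 FPKM (−1.71 ± 0.08). In contrast the SWEET-type gene Os05g0214300, a sugar efflux carrier, had 0.568, 0.885, 11.05 and 14.2 FPKM (2.98 ± 0.16). Among AP2/ERF genes 12 were higher (19%) and 9 lower (14.3%) of 63, beside 13.8% and 6.87% over all genes. A trio of neighbours on chromosome 3 lay below in Set NT, with Os03g0183200 at 125, 126, 16.2 and 25.8 FPKM (−2.56 ± 0.21), Os03g0183300 at 265, 254, 51.4 and 70.4 FPKM (−2.09 ± 0.15) and Os03g0183000 at 841, 837, 442 and 464 FPKM, which did not reach 2-fold (−0.89 ± 0.07).

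The Set NT libraries differed from each other in some of the same lists. The median of Set NT 2 minus Set NT 1 was 0.319 for aquaporins, 0.171 for tubulins and actins and 0.169 for arabinogalactan, fasciclin and plastocyanin-like proteins, and it was −0.353 for low-oxygen genes, −0.354 for universal stress proteins and −0.277 for defence genes. A noncoding gene, Os04g0653500, was listed at 0 in both Root NT libraries and had 310 and 316 FPKM in Set NT. Another, Os11g0562432, was listed at 0 in both Set NT libraries and had 51.0 and 109 FPKM in Root NT.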
